A study of Mus musculus with 65 samples.

Results

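The genes described here are 35 genes of ribosome biogenesis and of the metabolism that goes with it, most of them well-known targets of the transcription factor Myc, out of 15020 gene symbols measured. They were chosen by name, as a functional group. They fall into 5 roles. The snoRNP proteins, which carry the guide RNAs that modify rRNA, are Fbl, Nop56, Nop58, Dkc1, Nolc1 and Rrp9. The genes of RNA polymerase I and of early pre-rRNA are Polr1a, Polr1b, Tcof1, Mybbp1a, Heatr1, Ddx21, Ncl and Nat10. The small-subunit factors are Utp20, Wdr43, Rrp12, Rcl1 and Nob1. The large-subunit factors are Bop1, Pes1, Wdr12, Ppan, Rrs1, Nop2, Nop16, Nip7, Ftsj3, Noc2l, Gnl3 and Npm1. The metabolic genes are Odc1 and Srm (polyamine synthesis), Eif5a (a translation factor that carries hypusine, a residue made from spermidine) and Cad (the opening steps of pyrimidine synthesis). All 35 were found in the tables and all passed the filter on low values in every experiment.

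Ribosomes are assembled in the nucleolus, where RNA polymerase I makes a long rRNA precursor that is folded, cut and chemically modified by snoRNPs and by many assembly factors while ribosomal proteins join it. The genes of these factors are transcribed by RNA polymerase II, and many carry E-box sequences to which Myc binds together with its partner Max. Leukaemic and erythroid progenitor cells make ribosomes at a high rate, and Myc and its ribosomal programme decline when such cells differentiate.

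The cells were MEL cells, a mouse erythroleukaemia line, in which the corepressor Mtg16 (gene Cbfa2t3) carries an FKBP tag and 2XHA; all groups shared this allele. Nascent RNA was measured by PRO-seq, which labels the transcripts that engaged polymerases extend in isolated nuclei. The treatments were 250 nM dTAGV1, which directs FKBP-tagged protein to degradation and is called the degrader below, 10 µM A485, which blocks the catalytic site of the histone acetyltransferases CBP and p300, and 5 nM LBH589, the histone deacetylase inhibitor also called panobinostat. Every value below is the authors' normalised count, scaled within each of 4 experiments, so levels are not compared between experiments and a change shared by most genes would not be seen. The A485 series held A485 for 15 min, 30 min and 1 h (3, 2 and 3 libraries), A485 with degrader at the same times (3, 2 and 3), degrader alone at the same times (3 each) and DMSO (3). The LBH589 series held LBH589 for 30 min and 1 h and DMSO (3 libraries each). The degrader time course held degrader for 15 min, 30 min and 1 h (3 each) and 2 h (2), washout of the degrader for 30 min (2), 1 h (1) and 2 h (2) after 2 h of treatment, and DMSO (3). The LBH589 washout series compared 1 h with 30 min after washout (3 each) in cells that had also had 2 h of degrader, with LBH589 given at a time the labels do not state.

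Library depth, recovered from the normalised values, ran from 16195241 to 62384678 reads per library in the time course and from 7453718 to 61981001 with A485 and its controls. It ran from 28147263 to 44810180 reads in the LBH589 series and from 13455453 to 29082615 reads after LBH589 washout. Of 65 samples, 62 libraries were used; 3 columns of the time course could not be tied to a sample. For 5 time-course libraries (degrader 1 h and 2 h) the title said A485 and the library name dTAGV1, and they were used as the library name states. In them Cbfa2t3 was 2.74 ± 0.29 log2 units above DMSO at 1 h and 2.85 ± 0.32 at 2 h, and Myc 0.62 ± 0.21 and 0.66 ± 0.24, while at A485 1 h of the A485 series Cbfa2t3 was at -4.13 ± 0.11 and Myc at -3.50 ± 0.10 against DMSO. In the time course, degrader 15 min replicate 2 and degrader 30 min replicate 3 stood apart from their groups: over the 2000 most variable genes their mean correlation with the other libraries of their group was -0.545 and -0.348, against 0.105 to 0.255 for those others. Counts of the time course are therefore given with and without these 2 libraries, and values of single genes without them are added for many of the calls that differ. In 15 min replicate 2 Cbfa2t3 had 150640, against 58870 and 48876 in its group and 153640 to 159400 at degrader 1 h. In 30 min replicate 3 it had 164980, against 112140 and 108200 in its group. Degrader 2 h had 175800 and 163200, and washout 30 min 165550 and 156960. Whether either library belongs to another group was not tested. The degrader removes the tagged protein and not the gene, so the nascent RNA of Cbfa2t3 does not check degradation; it was 2.18 ± 0.11 log2 units higher in degrader 1 h than in DMSO of the A485 series (adjusted p = 4.73e-17, limma). The erythroid markers Gata1, Klf1, Tal1 and Epor were transcribed in every library (lowest value 155), while the lowest values of Alas2 and Hbb-bt were 10.9 and 2.55. Of the markers of other cell types, Cd8a (lymphoid) and Snap25 (neuronal) did not exceed 5.10, but Cd79a (lymphoid) reached 124, Apoa1 (hepatocyte) 106, Rbfox3 and Syt1 (neuronal) 86.2 and 80.4 and Pdgfra (fibroblast) 41.1, in normalised counts over the whole gene. In these bulk libraries, fewer cells and less nascent RNA per cell cannot be told apart. The labels do not say that replicates came from separate cultures, so p-values measure only the spread between libraries.

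Among the 35 genes the nascent level per kb of gene spanned a wide range in DMSO of the A485 series. Ppan stood highest at 1158 normalised counts per kb, followed by Ncl at 504, Nop56 at 361, Npm1 at 237 and Eif5a at 235. The median was 86.1, which was the level of Odc1, and the lowest were Polr1a at 33.8 and Utp20 at 18.6. Npm1 and Eif5a lie next to each other in this order and do not differ beyond their spread. Gene length ran from 2.05 kb for Rrs1 to 80.2 kb for Utp20, with a median of 13.0 kb (RefSeq, GRCm38.p6). Npm1 and Eif5a have processed copies elsewhere in the genome, and how reads matching several places were counted is not given in the sources used here.

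E-box letters were looked for in the RefSeq promoter windows of GRCm38.p6, which run from 250 bases before to 50 bases after each gene start. Of the 35 genes, 28 had an entry, with 36 start sites in all, and Fbl, Tcof1, Rrp12, Bop1, Rrs1, Npm1 and Srm had none. The canonical E-box CACGTG, which reads the same on both strands, was found in 6 of the 28 genes (21.4%), against 8.09% of all 27025 genes listed. The variant CACGCG, on either strand, was found in 10 of 28 (35.7%), against 10.5% of all genes. The TATA letters TATAAA, on either strand, were found in 3 of 28 (10.7%), against 15.7% of all genes. Matches may share bases, as do the 2 CACGCG matches of Mybbp1a, on opposite strands, at -115 and -111 from the gene start. By start site the shares were 22.2% against 7.15% for CACGTG, 30.6% against 9.27% for CACGCG and 8.33% against 13.6% for TATAAA. These are matches of letters and not measured binding.

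The 5 windows below are of genes that moved in different ways: Odc1 fell with A485 at every time, Nip7 was among the genes highest above DMSO at 15 min of A485, Noc2l was among the lowest genes after 1 h of LBH589, Utp20 and Nat10 were among the highest after 1 h of A485. Capitals mark CACGTG or CACGCG on either strand. The Odc1 window lies at chr12:17544623-17544922 (+), with CACGCG starting at positions -180 and -101 from the gene start; Nip7 at chr8:107056627-107056926 (+), with CACGCG at -41; Noc2l at chr4:156235765-156236064 (+), with CACGCG at 13; Utp20 at chr10:88826765-88827064 (-), with CACGTG at 38; Nat10 at chr2:103761221-103761520 (-), with no match.
Odc1: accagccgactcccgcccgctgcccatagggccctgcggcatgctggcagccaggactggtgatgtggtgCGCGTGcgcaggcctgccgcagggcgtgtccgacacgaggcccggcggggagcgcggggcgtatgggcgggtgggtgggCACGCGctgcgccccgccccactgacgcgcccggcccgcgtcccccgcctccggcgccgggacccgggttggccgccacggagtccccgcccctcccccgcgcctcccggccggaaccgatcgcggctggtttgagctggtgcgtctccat
Nip7: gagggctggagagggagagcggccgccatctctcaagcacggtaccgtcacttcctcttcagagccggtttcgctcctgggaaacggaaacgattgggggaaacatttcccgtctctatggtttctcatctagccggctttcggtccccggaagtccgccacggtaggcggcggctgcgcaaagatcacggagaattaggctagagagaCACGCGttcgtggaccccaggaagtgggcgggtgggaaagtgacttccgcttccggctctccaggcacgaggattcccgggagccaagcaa
Noc2l: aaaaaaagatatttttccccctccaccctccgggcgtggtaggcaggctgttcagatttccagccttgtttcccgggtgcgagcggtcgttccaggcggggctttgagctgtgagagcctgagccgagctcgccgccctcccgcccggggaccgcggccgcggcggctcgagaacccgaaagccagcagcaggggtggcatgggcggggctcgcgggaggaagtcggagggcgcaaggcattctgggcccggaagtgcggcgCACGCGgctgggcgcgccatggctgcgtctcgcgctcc
Utp20: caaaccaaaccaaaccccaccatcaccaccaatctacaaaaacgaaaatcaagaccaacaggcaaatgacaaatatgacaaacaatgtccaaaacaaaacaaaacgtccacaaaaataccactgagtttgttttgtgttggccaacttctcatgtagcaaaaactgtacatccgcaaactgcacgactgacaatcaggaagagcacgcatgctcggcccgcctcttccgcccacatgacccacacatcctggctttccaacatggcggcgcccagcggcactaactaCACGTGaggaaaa
Nat10: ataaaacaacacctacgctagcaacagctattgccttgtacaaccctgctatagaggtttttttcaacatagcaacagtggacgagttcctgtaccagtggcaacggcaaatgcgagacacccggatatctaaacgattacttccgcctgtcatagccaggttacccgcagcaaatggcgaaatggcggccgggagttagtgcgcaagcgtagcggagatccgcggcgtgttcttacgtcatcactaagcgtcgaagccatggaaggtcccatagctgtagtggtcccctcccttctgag

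The plot of change by gene and comparison shows the whole group at once. With A485 most of the genes were above DMSO at 15 and 30 min and a smaller number from several roles was below. With LBH589 nearly all were below DMSO by 1 h. With the degrader alone changes were small, and 2 h after washout of the degrader all 35 had values above DMSO.

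**Figure D1:**
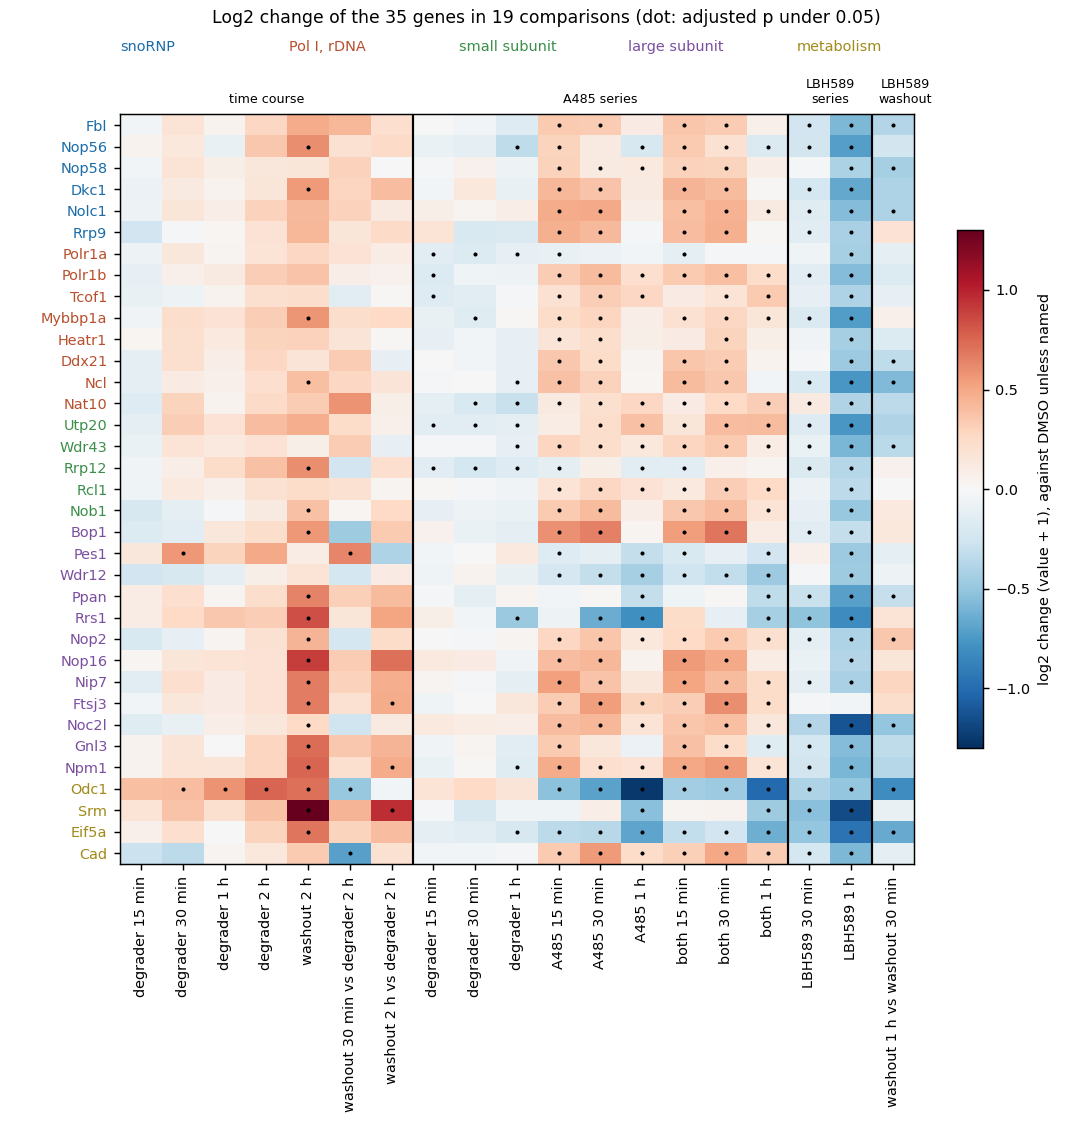
Log2 change of the 35 genes (rows, by role) in 19 comparisons (columns, by experiment), from limma on log2(normalised count + 1); red is higher in the group named first, blue lower, and cells with a dot passed an adjusted p of 0.05 (the colour scale ends just below the highest change, that of Srm at 2 h of washout). At LBH589 1 h 34 of the 35 genes fell, and at A485 15 min 25 rose and 6 fell.

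Relative to the DMSO mean, the median of the 35 genes lay between 0.21 and 0.35 log2 units in each A485 15 min library, at 0.27 and 0.25 in those of A485 30 min, and between 0.043 and 0.14 at 1 h, against -0.045 to 0.045 in the DMSO libraries. In LBH589 1 h libraries the median was -0.53, -0.47 and -0.53 and all 35 genes were below the DMSO mean in each library, against medians of -0.015 to 0.017 in DMSO. In the time course, DMSO replicate 3 had 34 of 35 genes below the DMSO mean (median -0.15, against 0.087 and 0.075 in the other DMSO libraries). The 2 libraries that stood apart had medians of 0.24 (15 min replicate 2) and 0.45 (30 min replicate 3), while the other libraries of those groups lay between -0.24 and 0.0027.

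**Figure D2:**
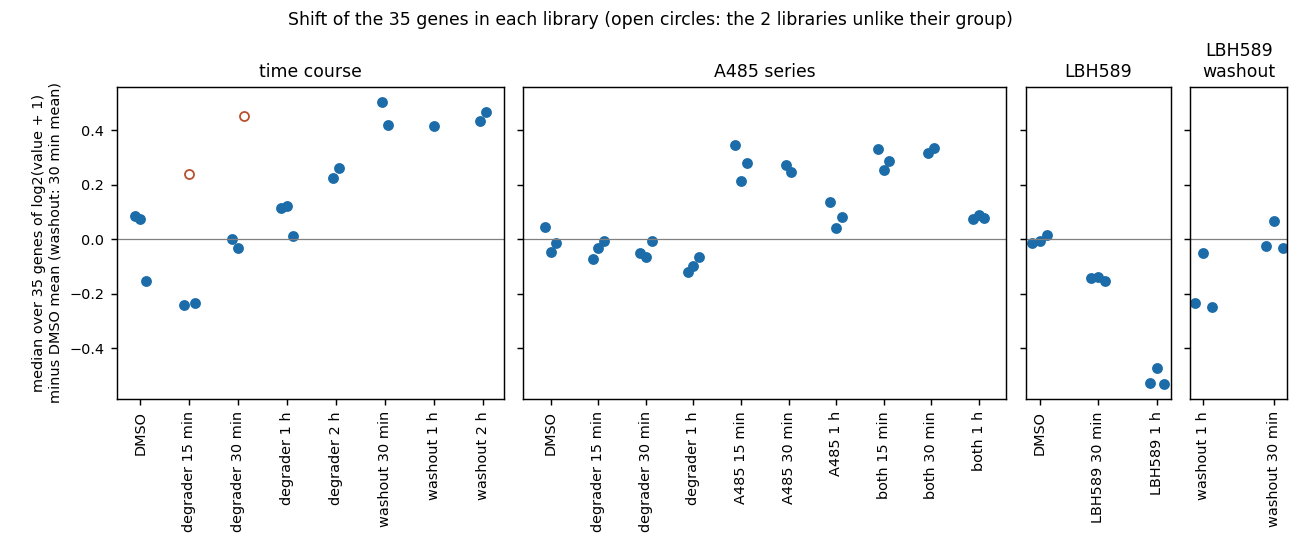
Each point is a library: the median over the 35 genes of its log2(normalised count + 1) minus the mean of the reference group of its experiment (DMSO, or LBH589 washout 30 min), in log2 units. All A485 15 min libraries lie at 0.21 or above, all LBH589 1 h libraries at -0.47 or below, and the 2 open points of the time course are the libraries that stood apart from their groups.

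A485 was the treatment under which the group split. At 15 min, 25 of the 35 genes rose and 6 fell (limma, adjusted p under 0.05 over 12597 genes), with a median change of 0.29; among all genes 25.8% were higher and 29.3% lower, and the all-gene median change lay between -0.017 and 0.023 in every comparison reported here. At 30 min 24 rose and 4 fell (all genes: 27.1% and 31.0%; median 0.24 for the 35). At 1 h 12 rose and 9 fell (all genes: 29.4% and 33.2%; median 0.082). The change at 1 h was below that at 15 min in 30 of 35 genes. DMSO and the 15 min libraries carry replicate numbers 4 to 6. A485 and both agents at 30 min and 1 h carry numbers from 1 to 3. Time under A485 and replicate set therefore cannot be told apart. At all 3 times 11 genes were higher (Nop58, Polr1b, Tcof1, Nat10, Wdr43, Rcl1, Nop2, Ftsj3, Noc2l, Npm1 and Cad) and 3 were lower (Wdr12, Odc1 and Eif5a). A further 13 were higher at 15 min and did not pass at 1 h, and Nop56 was higher at 15 min and lower at 1 h. The shares of all genes with these patterns across times are not given here, so the patterns are not set apart from those of other genes.

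By role, all 6 snoRNP genes, 7 of 8 polymerase I and pre-rRNA genes, 3 of 5 small-subunit and 8 of 12 large-subunit genes rose at 15 min of A485. Of the 4 metabolic genes, Cad rose and Odc1 and Eif5a fell, while Srm was not past the threshold (-0.060 ± 0.10, adjusted p = 0.66). At 1 h, 1 snoRNP gene rose and 1 fell, 3 polymerase I genes rose, 3 small-subunit genes rose and 1 fell, 4 large-subunit genes rose and 4 fell, and 3 metabolic genes fell, with a median of -0.61 for the 4. When each library was scaled to the same total instead of by the authors' factors, all genes shifted up by 0.13, 0.20 and 0.22 at the 3 times. The medians of the 35 then became 0.41, 0.43 and 0.30. On that scale 25 of the 35 rose and 5 fell at 1 h, where 51.4% of all genes were higher and 22.0% lower.

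Odc1, ornithine decarboxylase, catalyses the entry step of polyamine synthesis and was the gene lowest under A485. Its normalised counts were 605, 555 and 571 in DMSO, 376, 384 and 433 at 15 min, 352 and 358 at 30 min and 296, 243 and 194 at 1 h of A485. No A485 library overlapped DMSO at any time. The changes were -0.54 ± 0.10 (SE, adjusted p = 1.65e-05), -0.70 ± 0.11 (SE, adjusted p = 1.38e-06) and -1.26 ± 0.10 (SE, adjusted p = 2.20e-13) by limma. With both agents the counts were 406, 443 and 414 at 15 min, 400.2 and 429 at 30 min and 266, 283 and 309.6 at 1 h, again below every DMSO library.

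Eif5a, the hypusine-carrying translation factor, had 1253, 1294 and 1157 in DMSO, 915, 1021 and 984 at 15 min, 886 and 1042 at 30 min and 755, 795 and 752 at 1 h of A485. With both agents it had 965, 961 and 1037 at 15 min, 1099.7 and 973 at 30 min and 766, 795 and 823 at 1 h. All of these libraries were below the lowest DMSO library, and the A485 changes were -0.34 ± 0.071, -0.36 ± 0.080 and -0.68 ± 0.071 (the last with adjusted p = 3.94e-10, limma). Srm, spermidine synthase, followed Odc1 only at 1 h. Its counts were 332, 291 and 277 in DMSO, 308, 299 and 257 at 15 min, 316 and 318 at 30 min and 209.6, 178 and 231 at 1 h of A485. Only at 1 h were all libraries below DMSO (-0.54 ± 0.10 SE, adjusted p = 3.39e-05). With both agents Srm had 343, 299.5 and 281 at 15 min, 315 and 302 at 30 min and 204, 240.1 and 207 at 1 h, and at 1 h it was below DMSO, with a change of -0.47 ± 0.10.

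Cad went the other way among the metabolic genes. It had 1655, 1614 and 1709 in DMSO, 2296, 2038 and 1967 at 15 min, 2591 and 2296 at 30 min and 2050.0, 1921 and 1909.8 at 1 h of A485, and 2171, 1978 and 2012 at 15 min, 2323 and 2382 at 30 min and 2029.7, 2198 and 2050.5 at 1 h with both agents. Every treated library was above every DMSO library, with A485 changes of 0.34 ± 0.055, 0.56 ± 0.062 (SE, adjusted p = 1.94e-09) and 0.24 ± 0.055.

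Bop1, Pes1 and Wdr12 encode a trimeric complex of large-subunit maturation, and their genes went different ways. Bop1 had 849, 774 and 848 in DMSO, 1295, 1249 and 1175 at 15 min, 1346 and 1239 at 30 min and 930.2, 793 and 816 at 1 h of A485. It was well above DMSO at 15 and 30 min (0.59 ± 0.063 SE, adjusted p = 1.18e-09 and 0.65 ± 0.071 SE, adjusted p = 1.34e-09) and overlapped DMSO at 1 h (0.038 ± 0.063, adjusted p = 0.62). With both agents Bop1 had 1245, 1204 and 1157 at 15 min, 1364 and 1308 at 30 min and 865, 944 and 837 at 1 h. Wdr12 was below DMSO throughout: 2319, 2216 and 2342 in DMSO, 1935, 1918 and 2063 at 15 min, 1821 and 1888 at 30 min and 1719.8, 1657 and 1708 at 1 h of A485, with no overlap. Its changes were -0.22 ± 0.043, -0.31 ± 0.048 and -0.44 ± 0.043 (SE, adjusted p = 1.03e-10). With both agents Wdr12 had 1922, 1870.1 and 1973 at 15 min, 1776 and 1898 at 30 min and 1671, 1618 and 1678 at 1 h, also without overlap with DMSO. Pes1 was -0.17 ± 0.062 at 15 min and -0.31 ± 0.062 at 1 h of A485, both past the threshold.

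Npm1, nucleophosmin, a histone and ribosome chaperone of the nucleolus, had 2765, 2733 and 2777 in DMSO, 3764, 3534 and 4292 at 15 min, 3077 and 3365 at 30 min and 3175, 2988 and 3236 at 1 h of A485. With both agents it had 3742, 3948 and 4055 at 15 min, 3858 and 4258 at 30 min and 3058, 2942 and 3361 at 1 h. All treated libraries were above DMSO; the 15 min change was 0.48 ± 0.055 (SE, adjusted p = 5.50e-09). Ftsj3, an rRNA methyltransferase, had 449, 437 and 500.0 in DMSO, 616, 566 and 563 at 15 min, 707 and 644 at 30 min and 574, 575 and 539.7 at 1 h of A485, and 636, 560.1 and 534 at 15 min, 660.5 and 744 at 30 min and 547, 532 and 550.1 at 1 h with both agents. It too lay above DMSO without overlap, with changes of 0.33 ± 0.076, 0.55 ± 0.085 (SE, adjusted p = 1.36e-06) and 0.29 ± 0.076 with A485 alone. Nip7, a large-subunit factor, had 647, 681 and 736 at A485 15 min and 665, 685 and 676 with both agents at 15 min, against 517, 459.8 and 447 in DMSO (0.54 ± 0.074 SE, adjusted p = 2.19e-07 for A485). Nop16, another large-subunit factor, had 302, 323 and 323 with both agents at 15 min, against 219, 188 and 242 in DMSO (0.55 ± 0.11 SE, adjusted p = 5.58e-05); its libraries did not overlap either.

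Rrs1, a large-subunit factor and the shortest of these genes, had few counts: 138, 131 and 102 in DMSO, 113, 129.6 and 110.1 at 15 min, 93.2 and 65.2 at 30 min and 100.5, 73.3 and 47.2 at 1 h of A485. The 15 min libraries overlapped DMSO and the later ones were below it, with changes of -0.65 ± 0.20 (SE, adjusted p = 0.0065) and -0.79 ± 0.18 (SE, adjusted p = 2.88e-04). The 30 min call was lost without A485 30 min replicate 2 (adjusted p = 0.194). With both agents Rrs1 had 155, 127 and 156 at 15 min, 109.8 and 118 at 30 min and 83.1, 97.2 and 91.4 at 1 h, and was past the threshold at 1 h only (-0.44 ± 0.18).

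Utp20, a scaffold of the small-subunit processome, and Nat10, the acetyltransferase of small-subunit rRNA, were highest at 1 h of A485. Utp20 had 1563, 1432 and 1486 in DMSO, 1687, 1499.8 and 1610.0 at 15 min, 1749.7 and 1736 at 30 min and 1947, 1995 and 1892 at 1 h, and its changes were 0.10 ± 0.044 (not past the threshold, adjusted p = 0.058), 0.22 ± 0.049 and 0.38 ± 0.044 (SE, adjusted p = 3.29e-09). With both agents it had 1661, 1626 and 1712 at 15 min, 1999 and 1931 at 30 min and 1979.6, 1970.5 and 1993 at 1 h. Nat10 had 2047, 1856 and 1854 in DMSO, 2161, 2034 and 2044 at 15 min, 2241 and 2183 at 30 min and 2231, 2342 and 2379 at 1 h of A485, and 2123, 2028 and 2058 at 15 min, 2258 and 2344 at 30 min and 2337, 2492 and 2356 at 1 h with both agents. Its 1 h A485 libraries were all above DMSO (0.27 ± 0.047 SE, adjusted p = 5.49e-06), while the 15 min libraries overlapped DMSO (0.12 ± 0.047). Rrp12, an export and maturation factor of the small subunit, had 1649, 1601 and 1579.6 in DMSO, 1544, 1465 and 1450.3 at 15 min, 1774 and 1630.0 at 30 min and 1484, 1391 and 1517 at 1 h of A485, and 1535, 1382 and 1476 at 15 min, 1699.9 and 1659.8 at 30 min and 1656, 1641 and 1657 at 1 h with both agents. It fell at 15 min and 1 h of A485 (-0.12 ± 0.046 and -0.14 ± 0.046) and did not pass at 30 min.

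**Figure D3:**
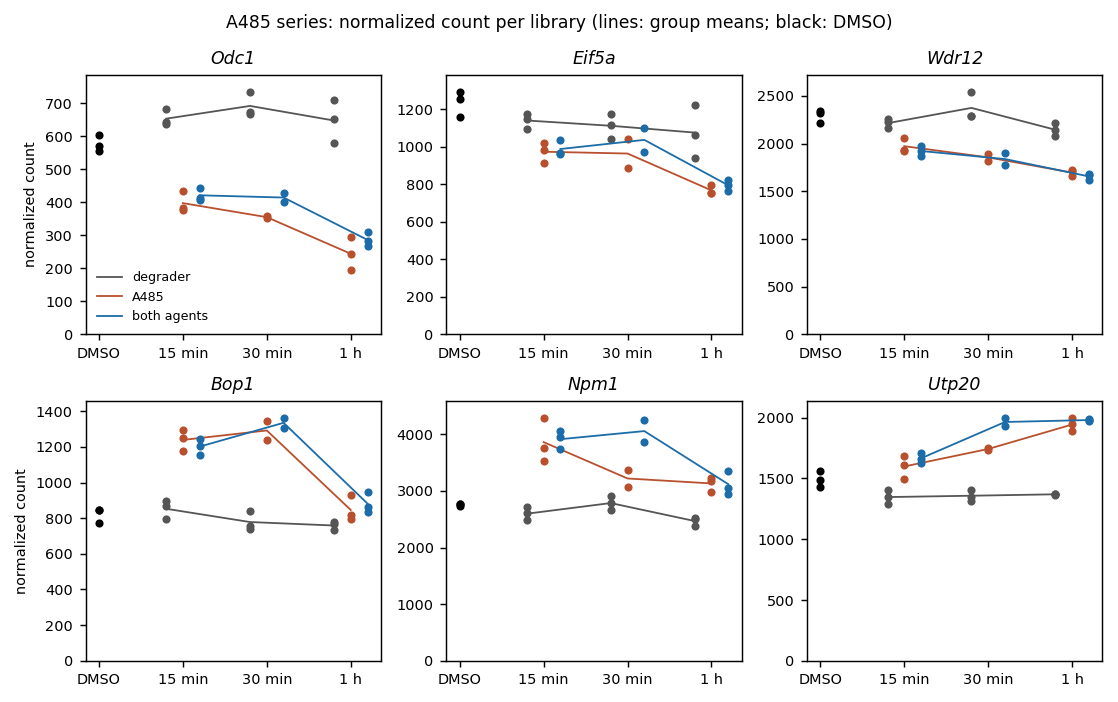
Normalised counts (vertical axes, from 0) of Odc1, Eif5a, Wdr12, Bop1, Npm1 and Utp20 in each library of the A485 series, by time with DMSO (black) at the low end; grey is the degrader, red A485 and blue both agents, points are libraries and lines join group means. Odc1, Eif5a and Wdr12 lie below DMSO at every A485 time, Bop1 is above DMSO at 15 and 30 min and overlaps it at 1 h, and the A485 libraries of Utp20 are highest at 1 h.

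Few of the genes differed between both agents and A485 alone. With both agents 24 genes rose and 6 fell at 15 min (all genes: 25.6% higher and 27.8% lower), 26 rose and 3 fell at 30 min (27.6% and 30.6%), and 15 rose and 9 fell at 1 h (30.5% and 32.5%), each against DMSO. Tcof1, treacle, which supports polymerase I transcription, was among the highest with both agents at 1 h, at 2232, 2373 and 2119.6, against 1826, 1679.6 and 1788 in DMSO (0.34 ± 0.052 SE, adjusted p = 7.69e-07). Set directly against A485 alone, no gene of the 35 passed at 15 min, where 0.857% of all genes were higher and 0.0238% lower (no gene of the 35 had an unadjusted p under 0.05 by limma; edgeR and DESeq2 called 0 as well). At 30 min only Npm1 passed (0.33 ± 0.068 SE, adjusted p = 0.0040; 1.31% of all genes were higher and 0.5% lower), and at 1 h only Rrp12 (0.17 ± 0.046 SE, adjusted p = 0.016; 4.56% and 2.34%). The changes of the 35 between both agents and A485 alone lay between -0.092 and 0.31 at 15 min, -0.14 and 0.54 at 30 min, and -0.10 and 0.36 at 1 h. The Npm1 call was lost without A485 30 min replicate 1 (adjusted p = 0.137) or both agents 30 min replicate 2 (adjusted p = 0.168), and that of Rrp12 without A485 1 h replicate 2 (adjusted p = 0.094) or both agents 1 h replicate 1 (adjusted p = 0.053), by limma.

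The interaction asks whether the degrader's effect in the presence of A485 differed from its effect without it. At 15 min 1 gene was above additivity, Utp20 (0.21 ± 0.062 SE, adjusted p = 0.039; 1.91% of all genes were higher and 3.41% lower). At 1 h 4 genes were: Rrs1 (0.84 ± 0.25 SE, adjusted p = 0.027), Nop56 (0.34 ± 0.079 SE, adjusted p = 0.0031), Nat10 (0.34 ± 0.066 SE, adjusted p = 5.83e-04) and Rrp12 (0.34 ± 0.065 SE, adjusted p = 5.37e-04), against 4.99% of all genes higher and 6.54% lower. Each of these 4 fell in degrader alone against DMSO, and had a change above 0 with both agents against A485 alone. Nop56, for example, had 1404, 1358 and 1512 in degrader 1 h, against 1893, 1818 and 1651 in DMSO, and 1573, 1528 and 1587 with both agents, against 1473, 1657 and 1503 with A485. The Utp20 call was lost in 8 of 12 fits that each left out a library (adjusted p from 0.054 to 0.155) and the Rrs1 call in 6 of 12 (0.053 to 0.108); DMSO replicate 4 was among them for both. Rrs1 did not pass with only the 4 groups in the fit (adjusted p = 0.082).

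The degrader alone lowered a few genes of the group slightly in the A485 series and raised none. At 15 min 5 fell, at 30 min 5 and at 1 h 10 (all genes lower: 5.8%, 9.23% and 10.9%; all genes higher: 10.9%, 11.3% and 14.7%), with medians over the 35 of -0.031, -0.037 and -0.10. At 15 min these were Polr1b, Tcof1, Rrp12, Utp20 and Polr1a. At 30 min they were Rrp12, Nat10, Polr1a, Mybbp1a and Utp20. At 1 h they were Rrs1, Nop56, Nat10, Eif5a, Rrp12, Npm1, Utp20, Polr1a, Wdr43 and Ncl. The counts depended on single libraries. At 1 h 3 genes passed without DMSO replicate 4, 4 without degrader replicate 5 and 5 without DMSO replicate 6 or degrader replicate 4; at 15 min 0 passed without DMSO replicate 4 or degrader replicate 4; at 30 min 3 passed without DMSO replicate 4 or degrader replicate 5.

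Polr1b, the second-largest subunit of RNA polymerase I, had 1146, 1182 and 1192 at degrader 15 min, against 1366, 1330.4 and 1284 in DMSO (-0.18 ± 0.048 SE, adjusted p = 0.0084). Tcof1 had 1535, 1568 and 1597 at degrader 15 min, against 1826, 1679.6 and 1788 in DMSO (-0.17 ± 0.052 SE, adjusted p = 0.020). Polr1a, the largest polymerase I subunit, had 2120.2, 2026 and 2165 at degrader 30 min, against 2452, 2332 and 2356 in DMSO (-0.18 ± 0.040 SE, adjusted p = 0.0012). In all 3 genes the degrader libraries lay below every DMSO library.

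In the genes followed through every group, degrader 15 min, 30 min and 1 h gave the following. Rrp12 had 1450.5, 1421 and 1484 at 15 min, 1415, 1334 and 1376 at 30 min and 1370.4, 1444 and 1501 at 1 h, all below the lowest DMSO library, with changes of -0.15 ± 0.046, -0.23 ± 0.046 (SE, adjusted p = 3.96e-04) and -0.16 ± 0.046. Nat10 had 1642, 1856 and 1783 at 15 min, 1676, 1628 and 1718 at 30 min and 1542, 1510.1 and 1646 at 1 h, and was below DMSO without overlap at 30 min and 1 h (-0.29 ± 0.047 SE, adjusted p = 9.72e-06 at 1 h). Utp20 had 1289, 1349.7 and 1402 at 15 min, 1407, 1318 and 1350.1 at 30 min and 1372, 1373 and 1364 at 1 h, all below DMSO, with changes of -0.15 ± 0.044, -0.14 ± 0.044 and -0.12 ± 0.044. These 3 genes were lower than DMSO in every library of degrader 30 min and 1 h.

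Rrs1 had 120.3, 139 and 129 at 15 min, 113, 126 and 119 at 30 min and 85.3, 78.6 and 99.3 at 1 h, and only the 1 h libraries were below DMSO (-0.48 ± 0.18 SE, adjusted p = 0.045); that call was lost without DMSO replicate 4 or 5 or degrader replicate 4 or 5. Npm1 had 2484, 2602 and 2708 at 15 min, 2656, 2911 and 2792 at 30 min and 2524, 2386 and 2496 at 1 h, and was below every DMSO library at 15 min and 1 h, past the threshold at 1 h (-0.16 ± 0.055). Eif5a had 1149, 1095 and 1175 at 15 min, 1116, 1044 and 1175 at 30 min and 942, 1062 and 1222 at 1 h, with the 1 h libraries overlapping DMSO (-0.21 ± 0.071 SE, adjusted p = 0.031). The remaining 6 did not pass at any time. Odc1 had 642, 681 and 636 at 15 min, 673, 735 and 667 at 30 min and 653, 580.5 and 709 at 1 h, above every DMSO library at 15 and 30 min and overlapping at 1 h (0.18 ± 0.10, 0.26 ± 0.10 and 0.16 ± 0.10; the 30 min value had adjusted p = 0.051). Srm had 289.9, 299 and 298 at 15 min, 259, 257 and 261 at 30 min and 257, 276 and 335 at 1 h, below every DMSO library at 30 min and overlapping at the other times. Cad had 1576, 1612 and 1685 at 15 min, 1656, 1512 and 1684 at 30 min and 1567, 1732 and 1612 at 1 h, overlapping DMSO at each time. Bop1 had 796, 895 and 868 at 15 min, 841, 756 and 739 at 30 min and 733, 768 and 777 at 1 h, overlapping DMSO at each time. Wdr12 had 2159, 2224 and 2255 at 15 min, 2289.9, 2544 and 2285 at 30 min and 2213, 2082 and 2137 at 1 h, and Ftsj3 had 431, 462 and 436 at 15 min, 432, 456 and 499 at 30 min and 467, 562 and 504 at 1 h. Ftsj3 overlapped DMSO at each time, and Wdr12 at 15 and 30 min.

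In the time course the same agent at 15 min, 30 min, 1 h and 2 h called 0, 2, 1 and 1 genes of the 35 higher and none lower (all genes higher: 5.89%, 8.69%, 8.13% and 6.77%; lower: 1.04%, 5.17%, 3.13% and 2.63%). At 15 min 3 of the 35 had an unadjusted p under 0.05 by limma, and edgeR called 0 and DESeq2 1. The median change of the 35 was -0.061, 0.16, 0.086 and 0.23 at the 4 times, and at 2 h all 35 values were above 0. Without the 2 libraries that stood apart, 1 gene was higher and 22 lower at 15 min (median -0.22; all genes 14.1% and 13.7%), 2 higher and 1 lower at 30 min (12.2% and 8.86%), 5 and 1 at 1 h (15.1% and 15.1%), and 26 and 0 at 2 h (17.0% and 14.0%). Neither library belongs to the 1 h, 2 h or DMSO groups, so the changes at 1 h and 2 h were the same in both fits. Only their SE fell, with a lowest value at 2 h of 0.094 with all libraries and 0.046 without the 2. With single libraries left out, 7 genes passed at 15 min without degrader replicate 2, the 30 min count became 0 without any 1 of the DMSO libraries and 1 without any 1 of the degrader libraries, and the 2 h count became 0 without degrader 2 h replicate 2. The median changed sign at 15 min without degrader replicate 1 (0.021), at 30 min without degrader replicate 3 (-0.018) and at 1 h without DMSO replicate 3 (-0.007). DMSO replicate 3, below the DMSO mean in 34 genes, enters each of these comparisons.

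Odc1 was above DMSO at every time. It had 1221, 1232 and 990.5 in DMSO, 1352, 1756 and 1407 at 15 min, 1599, 1547 and 1381 at 30 min, 1854, 1715 and 1564 at 1 h and 1707 and 2174 at 2 h of degrader, and every degrader library was above every DMSO library. Its changes were 0.39 ± 0.12 (adjusted p = 0.071; without the 2 libraries that stood apart 0.27, adjusted p = 0.047), 0.40 ± 0.12 (SE, adjusted p = 0.039), 0.58 ± 0.12 (SE, adjusted p = 0.0040) and 0.75 ± 0.14 (SE, adjusted p = 0.0015). Pes1 was the other gene past the threshold, at 30 min, with 3678, 3744 and 6972 in degrader 30 min, against 3141, 3279.9 and 2912 in DMSO (0.56 ± 0.17 SE, adjusted p = 0.042). The highest of the degrader libraries is replicate 3, one of the 2 that stood apart; without them the change was 0.26 (adjusted p = 9.31e-04), and Pes1 was then also past the threshold at 1 h (0.29) and 2 h (0.50).

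Srm had 524, 689 and 554 in DMSO, 494, 1016 and 575 at 15 min, 590.3, 615 and 1192 at 30 min, 629.6, 763 and 641 at 1 h and 705 and 817 at 2 h of degrader. Eif5a had 2381, 2714 and 2078 in DMSO, 2252, 3288 and 2066 at 15 min, 2448, 2362 and 3627 at 30 min, 2315, 2517 and 2306 at 1 h and 2698 and 3143 at 2 h. Cad had 4279, 4095 and 3631 in DMSO, 3055, 4049.5 and 2903 at 15 min, 3662, 3410.1 and 2527 at 30 min, 4205, 4221 and 3857 at 1 h and 4662 and 4129 at 2 h. In Srm and Eif5a the highest value at 15 min is replicate 2 and at 30 min replicate 3, and in Cad 30 min replicate 3 is the lowest of these libraries; none passed with all libraries. Without the 2 libraries Cad was lower at 15 min (-0.42, adjusted p = 6.62e-05, limma), and Srm and Eif5a were higher at 2 h (0.38, adjusted p = 0.032, and 0.29, adjusted p = 0.0087).

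Nat10 had 4751, 4638 and 4040.1 in DMSO, 3366, 5077 and 3699.5 at 15 min, 4499, 4320.0 and 8404 at 30 min, 4722, 4733 and 4387 at 1 h and 5328 and 5303 at 2 h. Utp20 had 3883, 3957 and 2797 in DMSO, 2624, 4675 and 2701 at 15 min, 4006, 3698 and 5629 at 30 min, 4106, 4211 and 3640.0 at 1 h and 4640.4 and 4625 at 2 h. Rrp12 had 3741, 3697 and 2995 in DMSO, 2909.8, 4559 and 2829 at 15 min, 3768, 3460.0 and 3836 at 30 min, 4138, 4356 and 3788 at 1 h and 4610.5 and 4433 at 2 h. The 2 h libraries were above every DMSO library in these 3 genes, with changes of 0.25 ± 0.21, 0.40 ± 0.21 and 0.39 ± 0.15, but did not pass with all libraries; without the 2 libraries they did (adjusted p = 0.0021, adjusted p = 0.0027 and adjusted p = 3.15e-04). In that same fit all 3 were lower than DMSO at 15 min, Nat10 at -0.34 (adjusted p = 1.81e-04), Utp20 at -0.40 (adjusted p = 0.0040) and Rrp12 at -0.27 (adjusted p = 0.0086), and Rrp12 was higher at 1 h (0.24, adjusted p = 0.0073).

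Bop1 had 2139, 2029 and 1802 in DMSO, 1538, 2345 and 1513 at 15 min, 1942, 1823 and 1623 at 30 min, 2319.9, 2191 and 2107 at 1 h and 2495 and 2158 at 2 h. Wdr12 had 4228, 4342 and 4000.3 in DMSO, 3194, 4257 and 3226 at 15 min, 3711, 3571 and 3575 at 30 min, 3864, 3943 and 3675 at 1 h and 4366 and 4441 at 2 h. Rrs1 had 214, 298 and 228 in DMSO, 199.8, 301 and 296 at 15 min, 262, 255 and 373 at 30 min, 275, 332 and 331 at 1 h and 269 and 347 at 2 h. Wdr12 was below every DMSO library at 30 min and 1 h, while Bop1 and Rrs1 overlapped DMSO at most times. Ftsj3 had 749, 745 and 749 in DMSO, 642, 839.5 and 717 at 15 min, 695, 772 and 1059 at 30 min, 829, 765 and 830.5 at 1 h and 826 and 875 at 2 h. Npm1 had 5987, 5785 and 4892 in DMSO, 5237, 7065 and 5035 at 15 min, 5739, 5732 and 7513 at 30 min, 6691, 6204 and 5827 at 1 h and 6329 and 7148 at 2 h. Both were above DMSO at 2 h in each library and neither passed with all libraries. Without the 2 libraries Wdr12 was lower at 15 min (-0.38, adjusted p = 2.44e-06), 30 min (-0.20, adjusted p = 0.0028) and 1 h (-0.13, adjusted p = 0.019). Bop1 was then lower at 15 min (-0.38, adjusted p = 0.0016) and higher at 2 h (0.23, adjusted p = 0.042). Npm1 was then higher at 1 h and 2 h (0.17, adjusted p = 0.046, and 0.28, adjusted p = 0.0043) and Ftsj3 at 2 h (0.19, adjusted p = 0.043), while Rrs1 passed at no time.

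After the degrader was washed out, the group stood above DMSO. No DMSO group with a washout is among the samples. Removal of the degrader, the washing itself and the added time therefore cannot be told apart in the washout comparisons. At 2 h of washout 19 of the 35 genes were higher than in DMSO and 0 lower (all genes: 21.0% and 17.5%), with a median of 0.44 and all 35 values above 0. By role, 10 of 12 large-subunit, 3 of 4 metabolic, 2 of 6 snoRNP, 2 of 8 polymerase I and 2 of 5 small-subunit genes were higher, with medians of 0.65, 0.71, 0.46, 0.31 and 0.38; differences between roles were not tested. Without the 2 libraries that stood apart, 33 were higher (all genes: 32.3% higher and 26.9% lower), and Wdr43 and Pes1 were not. Leaving out the second washout 2 h column lowered the count to 8. Set against degrader 2 h, 3 genes were higher at 2 h of washout, Srm, Ftsj3 and Npm1, and 0 lower (all genes: 8.98% and 8.3%). That count was 20 higher and 1 lower without the 2 libraries (all genes: 22.2% and 20.8%), and 0 whenever either a washout 2 h or a degrader 2 h library was left out. At 30 min of washout against degrader 2 h, Pes1 was higher and Cad and Odc1 were lower (all genes: 10.5% higher and 13.8% lower). Without the 2 libraries 20 were higher and 8 lower (all genes: 24.7% and 26.3%). Leaving out single libraries was done only with the 2 libraries kept in. There the lower calls of Cad and Odc1 depended on single libraries, and each of the groups compared held 2 libraries. In all these washout comparisons the changes were the same with and without the 2 libraries that stood apart, and only the SE differed.

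Srm had 1231 and 861 at 30 min, 1319 at 1 h and 1399 and 1567 at 2 h of washout; the 2 h libraries exceed every DMSO and degrader library of the time course (1.34 ± 0.29 SE, adjusted p = 0.0023 against DMSO, 0.96 ± 0.32 SE, adjusted p = 0.049 against degrader 2 h). Ftsj3 had 997 and 949 at 30 min, 1098 at 1 h and 1188 and 1186 at 2 h (0.48 ± 0.15 SE, adjusted p = 0.040 against degrader 2 h). Npm1 had 8095 and 7502 at 30 min, 8506 at 1 h and 9695 and 9049 at 2 h (0.48 ± 0.15 SE, adjusted p = 0.042). All 3 were at their highest at 2 h. Nop16 had 773 and 804 at 2 h of washout, against 446, 439 and 383 in DMSO (0.90 ± 0.23 SE, adjusted p = 0.0070). Rrs1 had 359.8 and 322 at 30 min, 391 at 1 h and 431 and 444 at 2 h of washout (0.84 ± 0.21 SE, adjusted p = 0.0050 against DMSO). Neither gene's washout 2 h libraries overlapped DMSO.

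Odc1 and Cad dipped at 30 min. Odc1 had 1259 and 1487 at 30 min, 1476 at 1 h and 1808 and 1947 at 2 h of washout, and the 30 min libraries were below degrader 2 h (-0.49 ± 0.15 SE, adjusted p = 0.029). Cad had 2589 and 2785 at 30 min, 3799 at 1 h and 4859 and 5241 at 2 h (-0.71 ± 0.16 SE, adjusted p = 0.015 at 30 min against degrader 2 h). Pes1 had 6632 and 6975 at 30 min of washout, against 4426 and 4341 in degrader 2 h (0.63 ± 0.21 SE, adjusted p = 0.041). The value of degrader 30 min replicate 3 was close to the washout 30 min libraries in Cad and Pes1; whether that library belongs to another group was not tested.

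Eif5a had 3688 and 3428 at 30 min, 3609.9 at 1 h and 3778 and 3930.0 at 2 h of washout, above every DMSO library. Nat10 had 7798 and 8189.5 at 30 min, 5338 at 1 h and 5471 and 5730.5 at 2 h, highest at 30 min. Utp20 had 5451 and 5511 at 30 min, 5238 at 1 h and 4853 and 4859.7 at 2 h, and Rrp12 had 3886 and 3724 at 30 min, 4976 at 1 h and 5213 and 5334 at 2 h. Bop1 had 1839 and 1544 at 30 min, 2599 at 1 h and 2734 and 3170.5 at 2 h, lowest at 30 min, and Wdr12 had 3915 and 3608 at 30 min, 4407 at 1 h and 4666 and 4813 at 2 h. Of these 6, Eif5a, Rrp12 and Bop1 were higher than DMSO at 2 h of washout (0.70 ± 0.18, 0.61 ± 0.15 and 0.57 ± 0.15). Without the 2 libraries that stood apart, all 6 of these and Cad were higher than DMSO at 2 h of washout (adjusted p from 3.97e-07 for Eif5a to 0.0023 for Wdr12). At 30 min of washout against degrader 2 h, Bop1, Wdr12 and Rrp12 were then lower (-0.46, -0.23 and -0.25) and Nat10, Srm, Eif5a, Npm1 and Ftsj3 higher (0.59, 0.44, 0.29, 0.21 and 0.19). At 2 h of washout against degrader 2 h, Pes1 was then the gene that was lower (-0.40, adjusted p = 1.20e-05, limma).

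Gene length went with the size of the washout change. Across the 35 genes the log2 change at 2 h of washout against DMSO had a Spearman rank correlation of -0.74 with gene length, against -0.36 across 12710 genes; the points share the same libraries. The 12 genes under 10 kb had a median change of 0.68, and the 14 genes of 20 kb or more 0.28. Against degrader 2 h the rank correlation was -0.71 in the 35 and -0.43 across all genes. With the degrader at 15 min it was -0.47 in the 35 genes and 0.13 in all in the A485 series, and -0.46 and 0.053 in the time course. With LBH589 at 30 min it was 0.59 and 0.11, and with A485 at 1 h 0.44 and 0.053. In the other comparisons with DMSO it lay between -0.26 (degrader 30 min of the time course) and 0.43 (both agents at 1 h) in the 35 genes. What lies behind these relations was not tested.

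**Figure D4:**
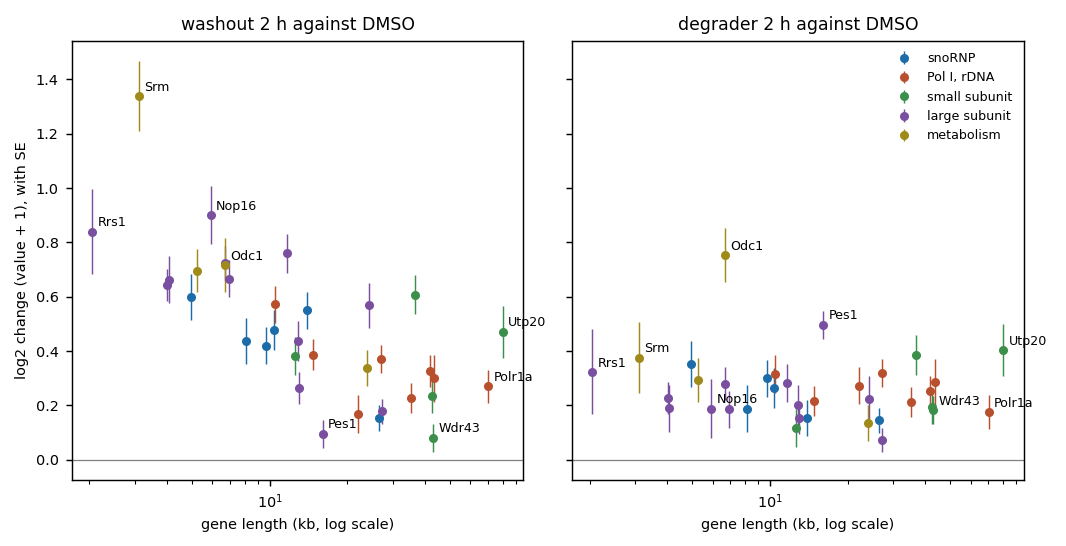
Log2 change against DMSO of each of the 35 genes (vertical axes) by gene length (horizontal axes, kb, log scale) at 2 h of degrader washout (left) and at 2 h of degrader (right), coloured by role; bars are the SE from the fit without the 2 libraries that stood apart. At 2 h of washout, genes under 10 kb have a median of 0.68 and genes of 20 kb or more 0.28.

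LBH589 lowered nearly the whole group, and more at 1 h than at 30 min. At 30 min 23 genes fell and 1, Nat10, rose (all genes: 21.9% lower and 17.8% higher), with a median of -0.15. At 1 h 34 fell and none rose (all genes: 34.6% lower and 32.4% higher), with a median of -0.50; the exception was Ftsj3 (-0.038 ± 0.050, adjusted p = 0.51). Every one of the 35 was lower at 1 h than at 30 min in value, and 33 passed the test of that difference (all genes: 29.6% lower and 27.3% higher), all but Ftsj3 and Odc1. At 30 min 5 of 6 snoRNP genes, 3 of 8 polymerase I genes, 3 of 5 small-subunit, 8 of 12 large-subunit and all 4 metabolic genes fell; at 1 h all of each role fell but for Ftsj3. No library decided these counts: with each left out, 19 to 23 fell at 30 min and 34 at 1 h.

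Srm was lowest at 1 h. It had 1103, 1057 and 1061 in DMSO, 735, 723 and 749.6 at 30 min and 511, 469 and 462 at 1 h of LBH589, and the 3 groups did not overlap. The changes against DMSO were -0.54 ± 0.054 (SE, adjusted p = 3.92e-09) and -1.16 ± 0.054 (SE, adjusted p = 4.61e-17). Noc2l, a nucleolar factor of large-subunit export that also binds histones, had 4032, 3995 and 4025 in DMSO, 3281, 3011 and 2992 at 30 min and 1862, 1998 and 1685 at 1 h (-1.12 ± 0.046 SE, adjusted p = 2.08e-18 at 1 h against DMSO, -0.75 ± 0.046 SE, adjusted p = 1.60e-13 against 30 min). Eif5a had 2716, 2852 and 2747 in DMSO, 1915, 1920.0 and 2038 at 30 min and 1422, 1405 and 1435 at 1 h (-0.96 ± 0.039 SE, adjusted p = 1.76e-18 at 1 h). In both, the groups stepped down without overlap.

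Odc1 reached most of its fall by 30 min: 1367, 1384 and 1500.4 in DMSO, 998, 1107 and 1112 at 30 min and 949, 977 and 1081 at 1 h, with -0.40 ± 0.053 and -0.50 ± 0.053 against DMSO and -0.10 ± 0.053 (adjusted p = 0.12) between the times. Rrs1 had 335, 324 and 357 in DMSO, 220.2, 238 and 250.2 at 30 min and 179, 166 and 236 at 1 h; both times were below DMSO (-0.52 ± 0.10 and -0.82 ± 0.10) and overlapped each other. Nat10 went up and then down: 5004, 5239 and 5109 in DMSO, 5682, 5455 and 5468 at 30 min and 3879.8, 4064 and 3742 at 1 h. It was above DMSO at 30 min (0.11 ± 0.035 SE, adjusted p = 0.010) and below it at 1 h (-0.39 ± 0.035 SE, adjusted p = 3.94e-11), without overlap at either time; the 30 min call was lost without DMSO replicate 7 (adjusted p = 0.064) or LBH589 replicate 1 (adjusted p = 0.063).

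Utp20 had 3954, 4036 and 4067 in DMSO, 3565, 3648 and 3494 at 30 min and 2302, 2563 and 2296 at 1 h (-0.58 ± 0.039 SE, adjusted p = 6.61e-13 between the times). Npm1 had 6078, 5957 and 6323 in DMSO, 4773, 5244 and 5514 at 30 min and 3756, 4321 and 4093 at 1 h. Cad had 4169.7, 4167 and 4205 in DMSO, 3658, 3713 and 3368 at 30 min and 2823, 2973 and 2604 at 1 h. All 3 genes stepped down without overlap. Rrp12 had 4194, 4224 and 4313 in DMSO, 3828, 3826 and 3559 at 30 min and 3518, 3277 and 3093 at 1 h. Bop1 had 2410.5, 2236 and 2341 in DMSO, 2109, 2159 and 2046 at 30 min and 2026, 1839 and 1779.8 at 1 h, and was the gene that fell least at 1 h (-0.31 ± 0.044). Wdr12 had 3614, 3619 and 3728 in DMSO, 3656, 3517 and 3639 at 30 min, where it overlapped DMSO, and 2533, 2822 and 2603 at 1 h. Ftsj3 stayed within a narrow range, with 837, 842 and 808 in DMSO, 791, 854 and 805 at 30 min and 802, 798 and 821 at 1 h.

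**Figure D5:**
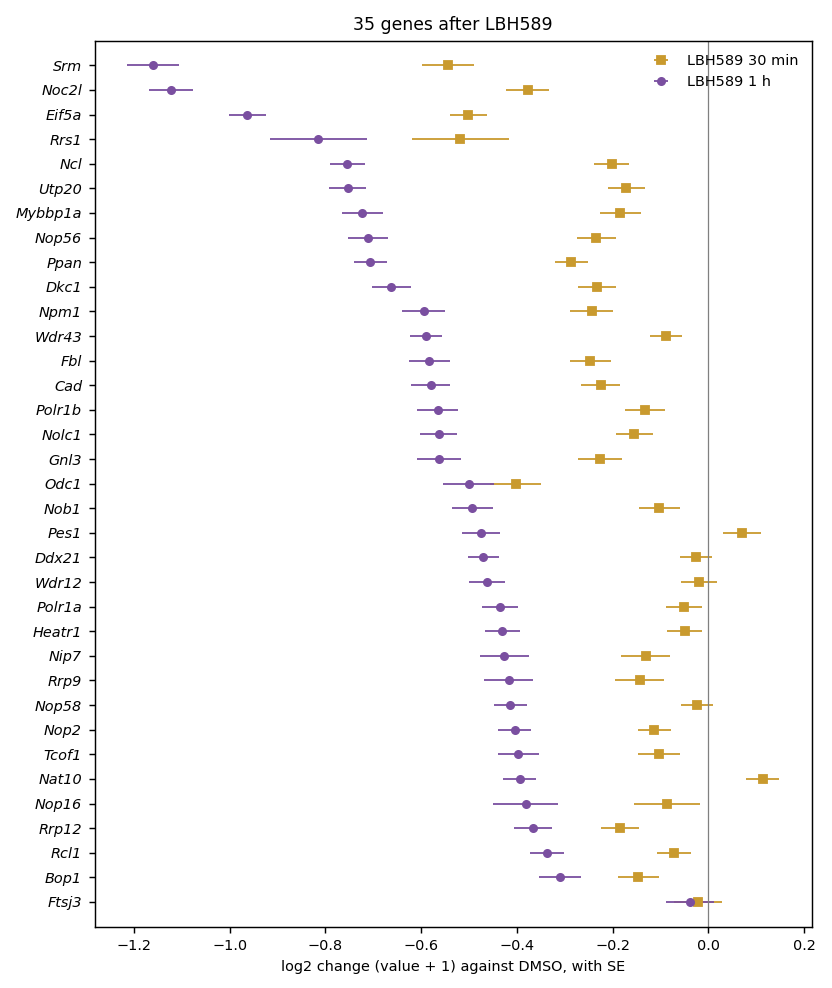
Log2 change against DMSO of the 35 genes (down the page, ordered by the 1 h change) at 30 min (squares) and 1 h (circles) of LBH589, with bars for the SE from limma. Srm and Noc2l lie furthest below 0 at 1 h, Nat10 is above 0 at 30 min and below it at 1 h, and Ftsj3 lies closest to 0 at 1 h.

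Between 15 min of A485 and 1 h of LBH589 the direction differed for most of the group. In this pairing of times 24 of the 35 genes were higher with A485 and lower with LBH589, each against the DMSO libraries of its own experiment. Among all genes 25.8% were higher at A485 15 min and 34.6% lower at LBH589 1 h, and the share with both is not given here. At 1 h of A485, 12 of the 35 were higher and 9 lower. The 6 genes lower at 15 min of A485 (Polr1a, Rrp12, Pes1, Wdr12, Odc1 and Eif5a) were lower at 1 h of LBH589 as well, where 34 of the 35 were. The doses, times and experiments differ, and the difference itself was not tested.

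After LBH589 was washed out, 1 h against 30 min, 10 genes were lower and 1 higher (all genes: 10.1% and 13.2%), with a median of -0.18. Lower were Odc1, Eif5a, Ncl, Noc2l, Nop58, Nolc1, Fbl, Wdr43, Ddx21 and Ppan, and Nop2 was higher. The count of lower genes was 4, 2 and 2 without washout 30 min replicate 1, 2 and 3 and 17 without washout 1 h replicate 2. Odc1 had 554, 656 and 558 at 1 h, against 875, 1176 and 1066 at 30 min (-0.81 ± 0.12 SE, adjusted p = 0.0031). Eif5a had 1139.6, 1216 and 744 at 1 h, against 1544, 1510.2 and 1710.1 at 30 min (-0.65 ± 0.16 SE, adjusted p = 0.018). Ncl, nucleolin, had 6208, 7356 and 4392 at 1 h, against 8656, 9144 and 8421 at 30 min (-0.58 ± 0.15 SE, adjusted p = 0.023). These 3 genes did not overlap between the times. Nop2, an rRNA methyltransferase, had 1764, 1858 and 2034 at 1 h, against 1473, 1549 and 1412 at 30 min (0.35 ± 0.082 SE, adjusted p = 0.015).

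The other genes followed in every library did not pass here. Srm had 343, 390.4 and 379 at 1 h, against 405, 415 and 370.1 at 30 min, and Cad had 1193, 1290.3 and 1591, against 1215, 1722 and 1514. Nat10 had 4102, 4579 and 3171 at 1 h, against 5084, 4892 and 4893 at 30 min. Utp20 had 1559, 1897 and 1226 at 1 h, against 1948, 2196 and 1911 at 30 min. Srm and Cad overlapped, while Nat10 and Utp20 were lower at 1 h in each library without passing the test (adjusted p = 0.057 and adjusted p = 0.066), and 1 h replicate 3 was the lowest of its group in both. Rrp12 had 2205, 2296 and 2569 at 1 h, against 2166, 2494 and 2129.8 at 30 min, and Bop1 had 1138, 1092 and 1509.6, against 1097, 1150.0 and 1109. Wdr12 had 1464, 1638 and 1313 at 1 h, against 1555, 1549.8 and 1499 at 30 min, and Rrs1 had 172, 207 and 315, against 202, 213 and 181. Ftsj3 had 587, 658 and 774 at 1 h, against 588, 649.9 and 488 at 30 min, and Npm1 had 2509, 2769.8 and 1532, against 3008, 2852 and 2684. All 6 overlapped, and 1 h replicate 3 was again at an extreme of its group.

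A list of 86 other genes of ribosome biogenesis, drawn up by function, gave the following. At A485 15 min 62 rose and 2 fell (all genes: 25.8% higher and 29.3% lower), with a median of 0.29, and at 1 h 37 rose and 7 fell (all genes: 29.4% higher and 33.2% lower). At LBH589 1 h 3 rose and 66 fell (all genes: 32.4% higher and 34.6% lower), with a median of -0.25. Mrto4, a large-subunit factor, was among the highest with A485 at 1 h (0.44) and among the lowest with LBH589 at 1 h (-0.70). Utp23 (0.48) was also highest with A485, and Bysl (-0.66) and Emg1 (-0.26) lowest. Ltv1 (-0.77) was the other lowest with LBH589, and Riok2 (0.33) and Las1l (0.29) were highest. At degrader 1 h of the A485 series 2 rose and 11 fell (all genes: 14.7% higher and 10.9% lower); Mrto4 (0.26) and Pelp1 (0.20) were highest and Utp18 (-0.19) and Rpf1 (-0.19) lowest. At 2 h of washout against degrader 2 h, Rrp8 (0.78) and Ngdn (0.74) were the highest of 3 that rose, and Mdn1 (-0.20) fell (all genes: 8.98% higher and 8.3% lower).

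Of 10 other polymerase I factors, against all-gene shares of 29.4% higher and 33.2% lower at A485 1 h and 32.4% higher and 34.6% lower at LBH589 1 h, 6 rose and 1 fell at A485 1 h, led by Polr1e (0.31) and Taf1c (0.30) and with Ubtf the one that fell (-0.29). At LBH589 1 h 1 rose, Polr1e (0.13), and 7 fell, with Ubtf (-0.73) and Taf1c (-0.53) lowest. At degrader 1 h Rrn3 alone fell (-0.14) and none rose (all genes: 14.7% higher and 10.9% lower). Of 19 polymerase III genes, set against the same all-gene shares, 8 rose and 3 fell at A485 1 h (Polr3c 0.41 and Brf2 0.39 highest, Polr3g -0.26 and Polr3b -0.16 lowest). Of the same 19, 4 rose and 9 fell at LBH589 1 h (Polr3k 0.32 and Polr3f 0.23 highest, Polr3d -0.75 and Gtf3c5 -0.67 lowest). At degrader 1 h Gtf3c5 (0.36) and Gtf3c4 (0.17) rose and none fell (all genes: 14.7% higher and 10.9% lower). At 2 h of washout against degrader 2 h Polr3k (1.24) and Brf2 (0.71) rose and none fell (all genes: 8.98% higher and 8.3% lower).

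Of 37 Myc targets outside ribosome biogenesis, 6 rose and 15 fell at A485 1 h (all genes: 29.4% higher and 33.2% lower), with Tert (0.39) and Shmt1 (0.34) highest and Ccnd2 (-2.09), the cyclin of G1 progression, and Pkm (-1.14), pyruvate kinase, lowest. At LBH589 1 h 4 rose and 28 fell (all genes: 32.4% higher and 34.6% lower), with Pkm (1.12) and Eno1 (0.40) highest and Prmt1 (-0.72) and Eif4a1 (-0.69) lowest. At degrader 1 h Tfrc (0.65), the transferrin receptor, rose. In that comparison 15 fell (all genes: 14.7% higher and 10.9% lower), with Nme2 (-0.61) and Eno1 (-0.34) lowest. At 2 h of washout against degrader 2 h 5 rose and 5 fell (all genes: 8.98% higher and 8.3% lower), with Cdk4 (0.92) and Hspe1 (0.81) highest and Hk2 (-0.94) and Mthfd2 (-0.85) lowest.

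Myc itself averaged 2927 ± 173 in DMSO, 718 ± 81.2 at 15 min, 491 ± 58.7 at 30 min and 261 ± 63.6 at 1 h of A485 (SD, n = 2 at 30 min and 3 otherwise), with log2 changes of -2.03 ± 0.10, -2.58 ± 0.12 and -3.50 ± 0.10. With both agents it averaged 864 ± 18.8, 481 ± 5.98 and 359 ± 29.0 at 15 min, 30 min and 1 h, and with the degrader alone 3495 ± 294, 3289 ± 387 and 3042 ± 219 (adjusted p = 0.75 at 1 h). In LBH589 it averaged 3923 ± 154 in DMSO, 1531 ± 98.9 at 30 min and 1524 ± 90.6 at 1 h (SD, n = 3), a log2 change of -1.36 ± 0.047 at 1 h. In the time course its log2 change was 0.82 ± 0.21 at degrader 15 min (adjusted p = 0.025), and it did not pass at degrader 30 min, 1 h or 2 h (0.27 ± 0.21, 0.62 ± 0.21 and 0.66 ± 0.24, with adjusted p = 0.42, adjusted p = 0.077 and adjusted p = 0.11, limma). Every library of degrader 15 min, 1 h and 2 h lay above every DMSO library (2643, 1988.5 and 2511). At 30 min replicates 1 and 2 did so too (3599 and 3656), while replicate 3 (1744), which stood apart, lay below DMSO. Myc had 3584, 3463 and 3856 at 1 h and 3730.5 and 3717 at 2 h. It was lower at washout 30 min than at degrader 2 h (-0.93 ± 0.26, adjusted p = 0.023) and higher at washout 2 h, by 1.24 ± 0.26 against degrader 2 h (adjusted p = 0.0053) and 1.89 ± 0.24 against DMSO. Of its network, Mxd4 (0.68 and 1.02 at 1 h of A485 and of LBH589) was higher under both. Mga was higher with A485 (0.37) and lower with LBH589 (-0.50). Mxd3 (0.61) was higher with LBH589, and Mxi1 (-0.85) lower with A485. Max was lower at degrader 1 h (-0.20), and Mlx (0.79) was higher at 2 h of washout against degrader 2 h.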

How the data were processed

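PRO-seq was measured in 4 experiments, each with its own table of nascent RNA per transcript. The authors deposited a signal: read counts divided by DESeq2 size factors. Per the submitters' processing notes the tools named are DESeq2 1.46.0, featureCounts 2.0.1, HOMER, bedtools, Bowtie2 2.2.2 and SAMtools 1.16.1, and the builds are mouse mm39 and fly dm3, with no role or order. Strand settings are not stated there. All values were whole multiples of 1 read (100% within 0.1 reads), so reads and depth could be recovered. No comparison crosses experiments, since the tables were normalised separately.

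For each of 15020 symbols the transcript with the highest mean was kept, out of 25857 transcripts (11 of the 35 genes had several). A gene entered the test if its mean reached 10. The test was limma (3.58.1, R 4.3.3) on log2(value + 1), with a trend and all groups of an experiment in the fit. P-values were adjusted over all genes tested (Benjamini-Hochberg), and the threshold was 0.05. Fold changes are on the log2(value + 1) scale, which understates changes of low genes. The fits were tested on simulated data. EdgeR 4.0.16 (quasi-likelihood) and DESeq2 1.42.0 were run on the recovered reads as alternatives; edgeR called 7719 of 12597 genes at A485 1 h and 8410 of 12553 at LBH589 1 h, against 7889 and 8412 with limma. The other alternatives were another pseudocount, other filters, equal library totals, fewer groups in the fit, the median over transcripts, the replicate number as a block, and fits that left out libraries.

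The genes and lists were chosen with earlier results of these data known. Values in every library are given for the 12 genes that were among the 3 highest or 3 lowest past the threshold in at least 3 comparisons, and other genes are named where they were among those 3 in a comparison, with the 2 highest and 2 lowest of each other list that passed in 4 comparisons. Further genes are named where few passed, in comparisons of patterns, or as the sequences shown. Time-course columns that could not be tied to a sample (3) and the tables of regulatory elements were not used, and 2 cell type markers are not reported here. Same-numbered libraries did not deviate together (median correlation -0.031 to 0.109), so no pairing was used.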

Additional observations from a re-analysis of the deposited data

Results flagged for a closer look

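The effect of the degrader with A485 present differed from its effect without it in 5 tests of the difference itself (the interaction in limma, adjusted p under 0.05 over all genes). At 15 min the interaction was 0.21 in Utp20. At 1 h it was 0.345 in Nop56, 0.34 in Nat10, 0.338 in Rrp12 and 0.841 in Rrs1, all in log2 units and above 0. The Utp20 call was lost in 8 of 12 fits that each left out a library, and the Rrs1 call in 6 of 12 and with only the 4 groups in the fit (adjusted p = 0.082).

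In some genes every degrader library lay above the DMSO mean in the time course and every degrader library lay below it in the A485 series, at the same dose and time. At 30 min this held for Mybbp1a, with 0.224 in the time course and -0.161 in the A485 series, and for Utp20, with 0.319 and -0.137 in the same order. At 1 h the time course had 0.067 and the A485 series -0.102 in Ncl, with 0.184 and -0.123 in Utp20 and 0.122 and -0.102 in Wdr43. Rrp12 had 0.24 in the time course and -0.163 in the A485 series, Rrs1 0.35 and -0.485, and Npm1 0.171 and -0.16. With all libraries in the fit none of these time-course changes passed the threshold, while those of the A485 series did. The time-course DMSO mean includes replicate 3, which lay below it in 34 genes. Ncl at 1 h, for example, overlapped DMSO there, with 17868, 17256 and 16619 against 17666, 17150 and 14725. The share of all genes with such opposite signs is not given here. The difference between the experiments was not tested. The time-course libraries of degrader 1 h are among those whose title and library name disagree; in them Cbfa2t3 was 2.74 and Myc 0.62 log2 units above DMSO, while at A485 1 h of the A485 series they were at -4.13 and -3.50. Degrader 30 min of the time course holds 1 of the 2 libraries that stood apart. No group was large enough for a test of single outlying libraries.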

How the results depend on the processing

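Among the 3 highest and 3 lowest genes past the threshold in each comparison, none changed direction under any alternative run. For the other genes past the threshold, direction under the alternatives is not given here. The small medians of degrader 15 min, 30 min and 1 h in the time course (-0.217 to 0.021, -0.018 to 0.248 and -0.007 to 0.118) took both signs when single libraries were left out. So did the median of both agents against A485 at 15 min (-0.032 to 0.02). Of 462 values of single genes from fits that left out a library, 383 stayed on their side of the threshold and 79 no longer passed; under the other alternatives 660 of 680 stayed and 20 no longer passed. Of 452 counts and medians under those other alternatives, 413 stayed within 1.5 times the reported count or within 1 SD of the library medians of the reported median, and the others follow. With equal library totals the medians were 0.412, 0.434 and 0.298 for A485 at 15 min, 30 min and 1 h, 0.412, 0.512 and 0.302 for both agents. They were -0.136 for degrader 1 h of the A485 series (16 genes lower, with 17.6% of all genes lower), 0.143 for washout 30 min against degrader 2 h (5 lower). They were -0.099, -0.382 and -0.319 for LBH589 30 min, 1 h and between them. The time-course medians at degrader 15 min, 30 min, 1 h and 2 h, within that SD, were -0.104, 0.062, 0.025 and 0.142 with all genes shifted by -0.06, -0.106, -0.074 and -0.085. With equal totals 25 genes rose at 1 h with A485 (51.4% of all genes higher) and 25 with both agents (51.2%). All genes shifted by 0.112, 0.191 and 0.22 for both agents and by 0.115 for LBH589 1 h. For the other counts under alternative settings in this paragraph, the share of all genes is not given beside them. With edgeR the LBH589 30 min median was -0.131. At degrader 15 min of the time course 1 gene passed with DESeq2, with equal totals and with the replicate block, and 23 without the 2 libraries that stood apart. At degrader 30 min 1 gene rose with no filter, with equal totals and with the block, and 0 with only the groups compared or without the 5 libraries whose labels conflict. With only the groups compared and without the 2 libraries, 3 and 5 genes rose at degrader 1 h, and 20 and 26 at 2 h. Under the same settings 23 and 20 rose at washout 2 h against degrader 2 h (1 with no filter), and 32 and 33 at washout 2 h against DMSO, and 8 and 8 fell at washout 30 min against degrader 2 h. For both agents against A485 at 1 h, 0 genes passed with only the groups compared or the replicate block, and for the 15 min interaction 0 with the block (Utp20, adjusted p = 0.051). The replicate numbers share no more than a number, and the block changed no other count by over 1.5 times.

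With each library left out in turn, counts ranged from 0 to 7, 0 to 1, 1 to 1 and 0 to 1 at degrader 15 min, 30 min, 1 h and 2 h of the time course, 0 to 0 (lower, washout 30 min) and 0 to 0 (higher, washout 2 h) against degrader 2 h, and 8 to 18 for washout 2 h against DMSO. In the A485 series they ranged from 0 to 5, 3 to 6 and 3 to 7 for the degrader and 23 to 26, 22 to 26 and 10 to 15 higher with A485. They were 23 to 25, 24 to 26 and 11 to 16 higher with both agents. They were 0 to 1 and 0 to 3 for both agents against A485 at 30 min and 1 h, and 0 to 2 and 3 to 5 for the interaction at 15 min and 1 h. They ranged from 19 to 23, 34 to 34 and 32 to 34 for LBH589, and from 2 to 17 for its washout. Medians ranged from 0.168 to 0.285 (washout 30 min against degrader 2 h), 0.256 to 0.333 and 0.055 to 0.111 (both agents, 15 min and 1 h), 0.025 to 0.046 (both agents against A485, 30 min), and -0.164 to -0.142 and -0.423 to -0.375 (LBH589 30 min, and 1 h against 30 min). Where a group kept 1 library, it was assumed to vary like the others. Reading every time-course column as its header names it was not run, and the third library named as doubted before, 30 min washout replicate 3, is in a column not used here. Depth limits most the low genes, such as Rrs1. The causes of these differences were not tested.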
